A study of Homo sapiens with 4 samples.

Results

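DNA replication and its start at the boundary of G1 and S phase are served by a group of 51 genes listed by function, with no threshold on their values: E2F transcription factors, the cyclins and kinases that act at G1/S, origin licensing and helicase genes, enzymes of the replication fork, and genes of nucleotide synthesis and histone mRNA processing. All 51 were found by symbol among the 57768 gene entries of each library. RNA-seq had been performed on cells labelled HepG2, an established human liver cancer line, as 2 WT and 2 C/EBPβ enh-/- libraries, the latter made after CRISPR/Cas9 had removed the C/EBPβ enhancer on both alleles. No treatment beyond culture in serum-containing medium was stated for either genotype, and the labels do not say whether the C/EBPβ enh-/- libraries came from 1 clone or from separate cultures, so that every p-value below measures only the spread between these libraries. The comparison asked how mRNA levels differ when the enhancer of a liver transcription factor is missing. Levels are given as FPKM (fragments scaled by transcript length and by library size).

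In G1 phase, D-type cyclins with CDK4 and CDK6, and then E-type cyclins with CDK2, phosphorylate the retinoblastoma protein and release E2F factors, which switch on the genes needed for S phase. Origins are licensed when ORC, CDC6 and CDT1 load the MCM helicase onto DNA, and they fire once CDC7, CDC45, MCM10 and the GINS complex have joined. Polymerases, the sliding clamp and its loader then copy the DNA, with deoxynucleotides made by ribonucleotide reductase, thymidylate synthase and thymidine kinase.

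Before the results, a few facts of the libraries bear on them. None of 20 hepatocyte markers reached an FPKM of 1 in any of the 4 libraries, and the highest single value was 0.428, while VIM and other mesenchymal markers were present (7, 7, 6 and 6 of 10 at an FPKM of at least 1 in WT libraries 1 and 2 and C/EBPβ enh-/- libraries 1 and 2). The libraries are therefore named by their labels only. CEBPB (ENSG00000172216.4, GRCh37 chr20:48807367-48809205, plus strand), the gene served by the deleted enhancer, had an FPKM of 30.6 and 19.2 in WT and 12.4 and 11.8 in C/EBPβ enh-/- libraries, a difference of −0.94 in log2(FPKM + 1) that did not pass the test (limma, adjusted p = 0.125) and ran from −1.27 without WT library 2 to −0.62 without WT library 1. C/EBPβ enh-/- library 1 stood apart in depth, at about 0.555 times that of WT library 1, and 35.1% of its summed FPKM came from 5 genes, against 18.8% to 27.4% in the other 3. The part of depth in the differences was not tested, and some of the values below are also given without this library. The 51 genes together held 0.470%, 0.522%, 0.354% and 0.428% of summed FPKM in WT libraries 1 and 2 and C/EBPβ enh-/- libraries 1 and 2.

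Many S-phase genes are known E2F targets, and the E2F factors bind short sites made of a run of T followed by G and C. Promoter windows from 250 bases before to 50 after the gene start (RefSeq, GRCh38.p14) were held for 42 of the 51 genes. At least 1 of TTTGGCGC, TTTCGCGC, TTTCCCGC and TTTGCCGC, read on both strands, stood in a window of 22 of these 42 genes (52.4%), against 660 of 9462 tested genes with a window (6.98%). The 250 bases before the start are shown for 4 genes that differ in role and in number of matches: E2F1, itself a member of the E2F family (chr20:33686386-33686635, minus strand), the helicase subunit MCM6 (chr2:135876444-135876693, minus strand), the clamp PCNA (chr20:5126623-5126872, minus strand) and thymidylate synthase TYMS (chr18:657403-657652, plus strand). All are written 5′ to 3′ along the gene and end 1 base before its start, with matches to the E2F letters in capitals.
E2F1: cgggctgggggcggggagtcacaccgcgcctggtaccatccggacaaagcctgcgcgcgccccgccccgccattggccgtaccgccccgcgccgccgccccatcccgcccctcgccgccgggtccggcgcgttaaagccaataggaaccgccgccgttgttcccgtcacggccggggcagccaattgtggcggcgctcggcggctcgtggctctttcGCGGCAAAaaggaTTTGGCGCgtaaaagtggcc
MCM6: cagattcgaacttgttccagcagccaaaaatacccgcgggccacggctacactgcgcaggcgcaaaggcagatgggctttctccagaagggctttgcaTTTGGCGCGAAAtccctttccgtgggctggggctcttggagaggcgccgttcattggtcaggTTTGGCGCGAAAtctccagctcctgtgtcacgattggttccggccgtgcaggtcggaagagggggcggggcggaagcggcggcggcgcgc
PCNA: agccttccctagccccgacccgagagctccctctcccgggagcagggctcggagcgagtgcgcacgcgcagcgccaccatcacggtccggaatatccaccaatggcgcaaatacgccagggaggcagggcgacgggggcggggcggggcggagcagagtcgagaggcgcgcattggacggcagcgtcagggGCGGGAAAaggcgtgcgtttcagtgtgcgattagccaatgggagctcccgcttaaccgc
TYMS: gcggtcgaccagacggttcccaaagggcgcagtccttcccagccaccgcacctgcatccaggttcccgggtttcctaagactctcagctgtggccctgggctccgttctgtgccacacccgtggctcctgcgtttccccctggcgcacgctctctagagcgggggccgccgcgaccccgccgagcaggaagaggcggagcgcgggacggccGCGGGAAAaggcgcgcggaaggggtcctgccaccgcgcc

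E2F1 held GCGGCAAA, the reverse complement of TTTGCCGC, from 33 bases before the start and TTTGGCGC from 20 bases before it. MCM6 held the same composite at 2 places, each made of TTTGGCGC and the reverse complement of TTTCGCGC (GCGCGAAA) sharing 4 bases, from 152 and from 90 bases before the start. PCNA and TYMS each held GCGGGAAA, the reverse complement of TTTCCCGC, from 59 and from 39 bases before the start. The other motifs searched lay nearer to, or under, their share among tested genes. CCAAT stood in windows of 25 of 42 genes (59.5%, against 44.1% of tested genes), TTTGAA, the core of a cell cycle element of later genes, in 2 (4.76%, against 13.7%), and TTGCNNAA, a form of the C/EBP site, in 2 (CDC7 and POLD1, 4.76%, against 9.92%). The windows were also slightly richer in G and C, with a median of 67.5% against 65.0%. Matches are letters in a window and not measured binding, and the table held no window for E2F8, CCND1, CCND2, CCNE2, CDK2, MCM4, MCM5, GINS4 and RPA2.

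Most of the S-phase genes were well expressed in both genotypes. Among the exceptions were E2F8, at a WT mean of 0.759, and CCND2, encoding cyclin D2, with an FPKM of 0.00366 and 0.00327 in WT libraries and of 0.104 and 0.0152 in C/EBPβ enh-/- libraries. CCND2 fell under the filter on low values (an FPKM of 1 or more when averaged over all 4 libraries) and was not tested. The other 50 genes were tested among 12491 genes, had mean FPKM between 1.54 (E2F8) and 592 (RRM1), and lay at a median of 25.3, against 9.47 for all tested genes. Of the 50, 40 lay above that all-gene median. The plot of levels shows each tested gene in each library.

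**Figure D1:**
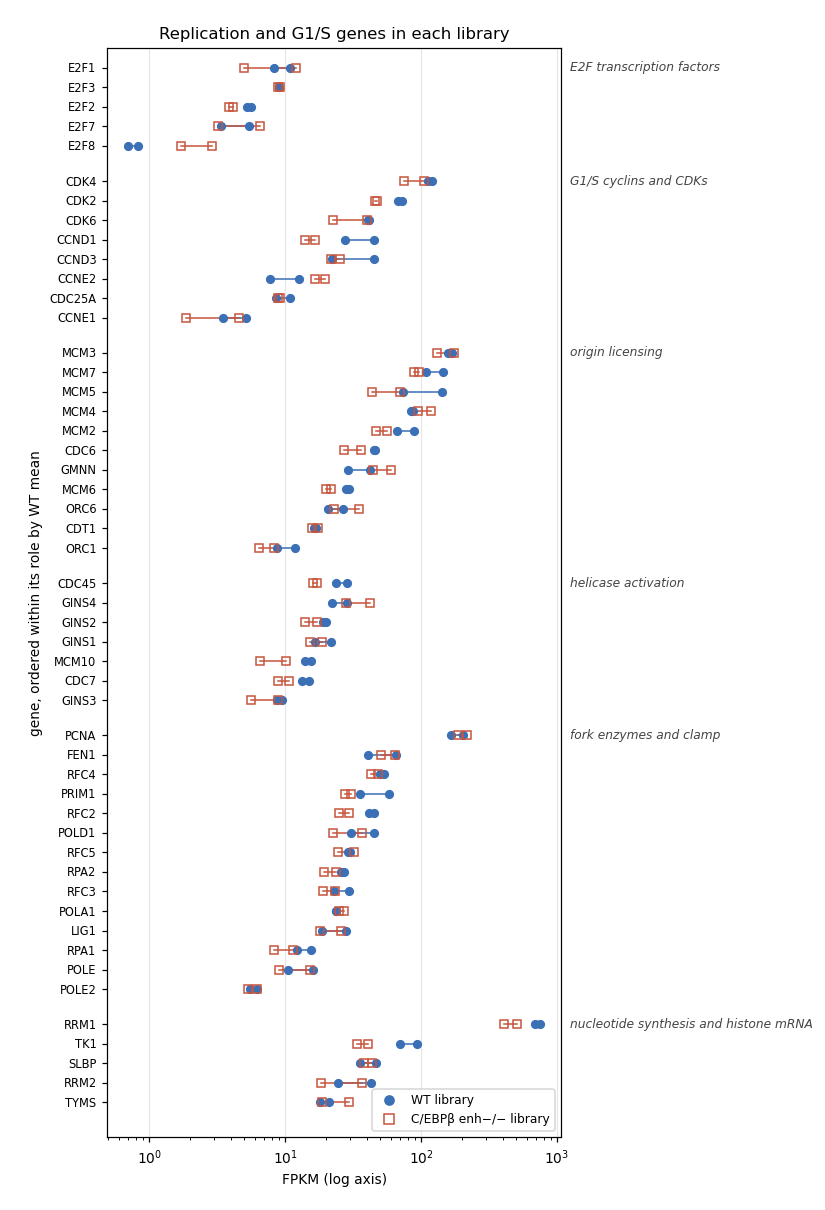
FPKM (log axis) of 50 replication and G1/S genes in each of the 4 libraries, grouped by role and ordered by the WT mean. Filled blue points are WT libraries, open red squares are C/EBPβ enh-/- libraries, and a line joins the libraries of a genotype; CCND2, which was not tested, is not drawn. TK1, CCND1 and CDK2 show squares to the left of the points, E2F8 and CCNE2 squares to the right, and the levels run from 0.695 (E2F8, WT library 1) to 757 (RRM1, WT library 1).

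None of the 50 genes passed an adjusted p of 0.05 in either direction (limma with Benjamini-Hochberg adjustment over all 12491 genes, of which 1.21% were called lower and 0.248% higher without the enhancer). The smallest adjusted p-values were those of TK1 (0.0816) and CCND1 (0.0957). At an unadjusted p under 0.05, 9 genes were lower (18%, against 16.9% of all tested genes) and 2 were higher (4.0%, against 3.86%). Both shares lie near those of all genes, and E2F8, among the higher genes, passed the filter on low values only through its C/EBPβ enh-/- libraries. The 9 were CCND1, CDK2, MCM2, MCM5, CDC45, MCM10, RFC2, RRM1 and TK1, and the 2 were E2F8 and CCNE2. In 22 genes the C/EBPβ enh-/- libraries were both under both WT libraries (44%, against 37.5% of all tested genes) and in 5 they were above both (10.0%, against 15.1%), and the genotypes overlapped in the other 23. The 5 higher genes were E2F8, CCNE2, GMNN, MCM4 and POLA1.

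The median difference over the 50 genes was −0.30 in log2(FPKM + 1), C/EBPβ enh-/- minus WT, beside a median of −0.14 over all tested genes. Differences below 0 were found in 38 genes and above 0 in 12, and 30 lay below the all-gene median. With each library centred on its own median, which moved the all-gene median from −0.14 to 0.03, the members' median was −0.13, and the split at an unadjusted p under 0.05 became 3 lower and 4 higher (against 10.1% and 9.14% of all genes). The count of lower genes also depended on single libraries, at 3 without WT library 2 and 5 without C/EBPβ enh-/- library 1, where the share over all genes also went down, to 10.4% and 12.8%. The count of higher genes was 0 without WT library 1 or without C/EBPβ enh-/- library 1, and 1 without C/EBPβ enh-/- library 2, against 1.93%, 2.68% and 7.41% of all genes. The gap between the members' median and the all-gene median was −0.16 with all libraries, −0.003 without WT library 2 and −0.02 without C/EBPβ enh-/- library 1. With 2 libraries per genotype, the 95% interval of a difference reached a median of 0.573 to either side and included 0 for 39 of the 50 genes. In bulk RNA, fewer cells in S phase and less of these mRNAs per cell cannot be told apart.

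**Figure D2:**
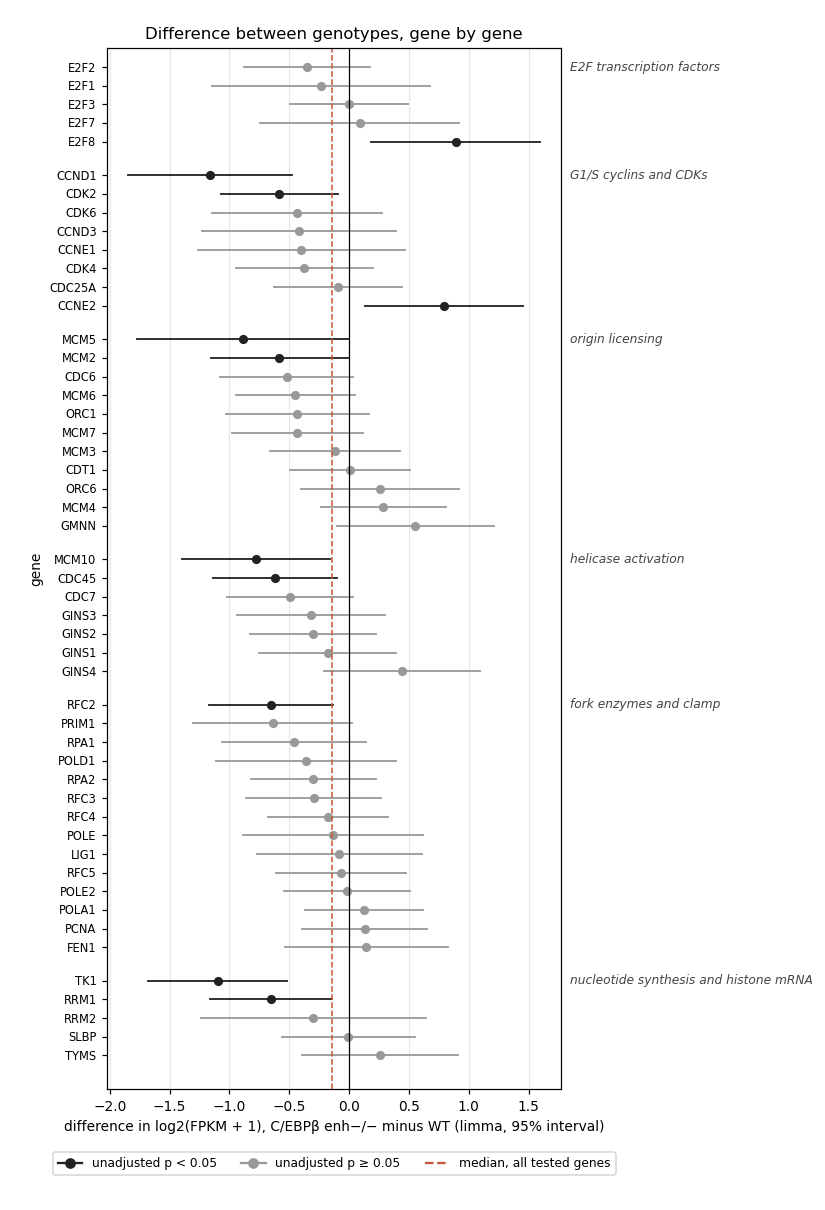
Difference in log2(FPKM + 1), C/EBPβ enh-/- minus WT, for the 50 tested genes by role, with its 95% interval from limma. Black marks genes at an unadjusted p under 0.05, grey the rest, and the dashed line is the all-gene median of −0.14. The leftmost genes are CCND1 (−1.17) and TK1 (−1.10), the rightmost E2F8 (0.89) and CCNE2 (0.79), and all grey intervals cross 0.

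The E2F transcription factors had a median difference of −0.0014 over 5 genes, which counts E2F8, a gene that passed the filter only through its C/EBPβ enh-/- libraries. The differences of the others ran from −0.35 (E2F2) to 0.087 (E2F7). E2F1, an activator of S-phase genes (ENSG00000101412.9, GRCh37 chr20:32263283-32274191), had an FPKM of 8.21 and 10.9 in WT and 5.00 and 12.1 in C/EBPβ enh-/- libraries. The C/EBPβ enh-/- libraries thus bracketed both WT libraries, and the difference of −0.24 (SE 0.38, adjusted p = 0.764 from limma) did not pass the test. E2F2 and E2F3 are further activators. E2F2 was the only one of the 5 with both C/EBPβ enh-/- values below both WT values, at 5.58 and 5.20 against 4.12 and 3.88, a difference of −0.35. E2F3 hardly varied at all, with FPKM between 8.89 and 9.18 in the 4 libraries. The atypical factors E2F7 and E2F8 repress S-phase genes. E2F7 overlapped between genotypes, at 3.37 and 5.42 in WT and 6.55 and 3.19 in C/EBPβ enh-/- libraries. E2F8, which lies under the level set for genes described in full and is given because of its rank among the differences, had an FPKM of 0.695 and 0.822 in WT and 2.91 and 1.72 in C/EBPβ enh-/- libraries. Both C/EBPβ enh-/- values were higher, at a low level in each library. E2F8 passed the filter on low values only through these, since its WT mean was under 1, so that its difference of 0.89 is a description and supports nothing.

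Among the G1/S cyclins and kinases, the median difference was −0.41 over 8 genes. It was 0.02 between C/EBPβ enh-/- library 2 and WT library 1 and from −0.67 to −0.39 in the other pairs. The E-type cyclins had differences of opposite sign with all libraries, but not without C/EBPβ enh-/- library 1. Cyclin D1, the partner of CDK4 and CDK6 (CCND1, ENSG00000110092.3, GRCh37 chr11:69455924-69469242), had an FPKM of 27.4 and 45.3 in WT libraries and 13.9 and 16.6 in C/EBPβ enh-/- libraries. The means were 36.4 ± 12.6 and 15.2 ± 1.89 (SD, n = 2), the groups did not overlap, and the spread was wider in WT than in C/EBPβ enh-/- cells. The difference of −1.17 (SE 0.29, adjusted p = 0.0957 from limma) was the largest of the 50 but did not pass the test. Cyclin D3, of the same class (CCND3), had an FPKM of 22.1 and 44.8 in WT and 21.6 and 25.2 in C/EBPβ enh-/- libraries. Its groups overlapped, because WT library 1 lay between the C/EBPβ enh-/- libraries. Within each library CCND1 stood at 1.24 and 1.01 times the FPKM of CCND3 in WT and at 0.644 and 0.659 times in C/EBPβ enh-/- cells. This ratio, like the other ratios between genes below, was chosen after the values were seen.

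The E-type cyclins drive CDK2 at the entry into S phase. CCNE1 (ENSG00000105173.9, GRCh37 chr19:30302898-30315219) had an FPKM of 3.51 and 5.16 in WT and 1.87 and 4.57 in C/EBPβ enh-/- libraries. The groups overlapped, with a difference of −0.40 (SE 0.36, adjusted p = 0.570 from limma) that was 0.079 without C/EBPβ enh-/- library 1. CCNE2 (ENSG00000175305.12, GRCh37 chr8:95891998-95908906) had an FPKM of 7.77 and 12.7 in WT and 19.6 and 16.5 in C/EBPβ enh-/- libraries. Its groups did not overlap, and it had the highest difference of the members averaging 5 FPKM or more, at 0.79 (SE 0.28, adjusted p = 0.176 from limma), which did not pass the test and was 0.47 without WT library 1 and 1.12 without WT library 2. The FPKM of CCNE2 was 2.21 and 2.47 times that of CCNE1 in WT and 10.5 and 3.62 times in C/EBPβ enh-/- libraries. The C/EBPβ enh-/- libraries lay far from each other in this ratio, since CCNE1 was low in library 1.

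The 3 kinases were lower in both C/EBPβ enh-/- libraries, as were 37.5% of all tested genes, and none passed the test. CDK2 (ENSG00000123374.6, GRCh37 chr12:56360565-56366573) was the most even, with an FPKM of 72.9 and 67.6 in WT and 47.1 and 45.8 in C/EBPβ enh-/- libraries, a difference of −0.58 (SE 0.21, adjusted p = 0.177 from limma). CDK4 (ENSG00000135446.12, GRCh37 chr12:58141510-58149796) had an FPKM of 120 and 112 in WT and 105 and 75.4 in C/EBPβ enh-/- libraries, a difference of −0.38 (SE 0.24, adjusted p = 0.415 from limma). For CDK4 only C/EBPβ enh-/- library 2 lay well under WT. For CDK6 it was the other library, at 41.1 and 40.7 in WT and 22.4 and 40.0 in C/EBPβ enh-/- libraries, with a difference of −0.44 that was −0.033 without C/EBPβ enh-/- library 1. CDC25A, the phosphatase that activates CDK2, overlapped between genotypes, with FPKM from 8.57 to 10.9.

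The 11 origin licensing genes had a median difference of −0.43, with both C/EBPβ enh-/- values below both WT values in 6 (54.5%, against 37.5% of all tested genes) and above in 2 (18.2%, against 15.1%). CDC6, which loads the helicase with CDT1 (ENSG00000094804.5, GRCh37 chr17:38444131-38460909), had an FPKM of 45.8 and 45.1 in WT and 36.4 and 27.1 in C/EBPβ enh-/- libraries. The WT libraries were nearly equal and both others were lower, with a difference of −0.52 (SE 0.23, adjusted p = 0.263 from limma) that was −0.31 without C/EBPβ enh-/- library 2. CDT1 itself varied little, between 15.8 and 17.4 in the 4 libraries. GMNN encodes geminin, the inhibitor of CDT1 (ENSG00000112312.5, GRCh37 chr6:24775159-24786327), and lay on the other side, at 28.9 and 42.4 in WT and 60.3 and 44.7 in C/EBPβ enh-/- libraries. WT library 2 and C/EBPβ enh-/- library 2 were close, and the difference of 0.55 (SE 0.28, adjusted p = 0.303 from limma) did not pass the test. It was 0.29 without WT library 1 and 0.82 without WT library 2. Of the origin recognition subunits, ORC1 was lower in both C/EBPβ enh-/- libraries (8.72 and 11.9 against 8.25 and 6.40), while ORC6 overlapped, at 26.7 and 20.8 in WT and 35.1 and 22.9 in C/EBPβ enh-/- libraries (difference 0.26, SE 0.28, adjusted p = 0.639 from limma).

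The subunits MCM2 to MCM7 form the helicase ring in equal parts, but their mRNA levels were unequal and their differences went both ways. In FPKM, which is per length, MCM3 was highest and MCM6 lowest in all 4 libraries, with MCM3 at 5.76 and 5.61 times MCM6 in WT and 6.03 and 8.69 times in C/EBPβ enh-/- libraries. WT library 1 and C/EBPβ enh-/- library 2 had the same order of all 6 subunits, and the other libraries each had an order of their own. MCM5 (ENSG00000100297.11, GRCh37 chr22:35796127-35821424) had an FPKM of 74.2 and 143 in WT and 43.6 and 70.1 in C/EBPβ enh-/- libraries. The groups did not overlap, but WT library 1 lay closer to C/EBPβ enh-/- library 2 than to WT library 2, and the difference was −0.89 (SE 0.37, adjusted p = 0.240 from limma). It was −0.42 without WT library 2. MCM2 (ENSG00000073111.9, GRCh37 chr3:127317253-127341279) had an FPKM of 66.8 and 88.9 in WT and 46.8 and 55.8 in C/EBPβ enh-/- libraries, with no overlap and a difference of −0.58 (SE 0.24, adjusted p = 0.232 from limma).

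MCM6, at 29.4 and 28.2 against 21.7 and 20.0, and MCM7, at 110 and 144 against 89.1 and 97.1, were also lower in both C/EBPβ enh-/- libraries. MCM4 (ENSG00000104738.12, GRCh37 chr8:48872745-48890720) was the only one of the 6 that was higher in both, at 88.0 and 85.1 in WT and 118 and 94.9 in C/EBPβ enh-/- libraries, a difference of 0.29 (SE 0.22, adjusted p = 0.495 from limma) that was 0.13 without C/EBPβ enh-/- library 1 and 0.44 without library 2. MCM3 overlapped, with FPKM from 131 to 174. The ratio of MCM4 to MCM5 was 1.19 and 0.595 in WT and 2.70 and 1.36 in C/EBPβ enh-/- libraries, so that the groups did not overlap but the spread within each was wider than the gap between them.

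Helicase activation genes had a median difference of −0.32 over 7 genes, of which 4 had both C/EBPβ enh-/- values below both WT values (57.1%, against 37.5% of all tested genes) and none above (against 15.1%). MCM10, which helps to activate the loaded helicase (ENSG00000065328.12, GRCh37 chr10:13203558-13253110), had an FPKM of 14.0 and 15.6 in WT and 10.2 and 6.57 in C/EBPβ enh-/- libraries. Both were lower, the second most, and the difference was −0.78 (SE 0.26, adjusted p = 0.162 from limma), or −0.50 without C/EBPβ enh-/- library 2. CDC45, a subunit of the active helicase, was lower in both (23.8 and 28.5 against 17.2 and 16.1, difference −0.62), as was the kinase CDC7 (14.9 and 13.3 against 8.86 and 10.7, difference −0.49).

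The GINS complex completes the active helicase, and its subunits differed among themselves. GINS2 was lower in both C/EBPβ enh-/- libraries, at 18.9 and 20.1 against 14.1 and 17.3. GINS1 and GINS3 overlapped between genotypes. GINS4 (ENSG00000147536.7, GRCh37 chr8:41386737-41402549) had an FPKM of 22.1 and 28.7 in WT and 42.4 and 28.2 in C/EBPβ enh-/- libraries, with overlapping groups and a difference of 0.44 (SE 0.28, adjusted p = 0.404 from limma) that was 0.16 without C/EBPβ enh-/- library 1.

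The 14 fork genes lay nearest to all genes, with a median difference of −0.16, 5 genes lower (35.7%, against 37.5% of all tested genes) and 1 higher (7.14%, against 15.1%) without overlap. PCNA, the sliding clamp (ENSG00000132646.6, GRCh37 chr20:5095599-5107272), had an FPKM of 167 and 202 in WT and 187 and 217 in C/EBPβ enh-/- libraries. The groups interleaved, with a difference of 0.13 (95% interval −0.39 to 0.65, adjusted p = 0.774 from limma). The clamp loader subunit RFC2 (ENSG00000049541.6, GRCh37 chr7:73645829-73668788) had an FPKM of 45.4 and 41.2 in WT and 24.96 and 29.6 in C/EBPβ enh-/- libraries. Both C/EBPβ enh-/- values were lower, with a difference of −0.65 (SE 0.22, adjusted p = 0.163 from limma). RFC3, RFC4 and RFC5 had differences of −0.29, −0.18 and −0.07, and no contrast among the subunits was tested. PRIM1, the primase catalytic subunit, was lower in both (58.5 and 35.7 against 27.8 and 30.3), mainly against WT library 1. Its exons overlap on the same strand with NACA, which had an FPKM of 589 to 713, so fragments may have been split between them.

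POLA1, the catalytic subunit of the polymerase that makes primers, was the only fork gene higher in both C/EBPβ enh-/- libraries, by a small amount (23.6 and 23.7 against 24.8 and 27.0). The leading and lagging strand polymerases POLE and POLD1, the flap nuclease FEN1 and the ligase LIG1 overlapped between genotypes, with differences from −0.36 (POLD1) to 0.14 (FEN1). That of POLD1 was −0.011 without C/EBPβ enh-/- library 1. The single-strand binding subunits RPA1 and RPA2 had both C/EBPβ enh-/- values under WT, with differences of −0.46 and −0.30, neither past the test, and of −0.24 and −0.16 without C/EBPβ enh-/- library 2.

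Nucleotide synthesis held the highest gene and the gene with the smallest p. TK1, the thymidine kinase that salvages thymidine (ENSG00000167900.7, GRCh37 chr17:76170172-76183314), had an FPKM of 69.7 and 93.8 in WT and 40.9 and 33.9 in C/EBPβ enh-/- libraries. The means were 81.7 ± 17.0 and 37.4 ± 4.98 (SD, n = 2) and the groups were well apart. The difference was −1.10 (SE 0.24, adjusted p = 0.0816 from limma) and did not pass the test. It passed when protein-coding genes alone were tested (adjusted p = 0.0441), and its adjusted p ranged from 0.0441 to 0.592 over the 13 alternatives.

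RRM1 encodes the large subunit of ribonucleotide reductase and RRM2 the small subunit that limits its activity in S phase. RRM1 (ENSG00000167325.10, GRCh37 chr11:4115937-4160162) had an FPKM of 757 and 688 in WT and 513 and 410 in C/EBPβ enh-/- libraries. Both C/EBPβ enh-/- values were lower, with a difference of −0.65 (SE 0.22, adjusted p = 0.160 from limma). RRM2 (ENSG00000171848.9, GRCh37 chr2:10260825-10351851) had an FPKM of 24.5 and 43.0 in WT and 37.1 and 18.5 in C/EBPβ enh-/- libraries. Libraries of the same genotype differed more than the genotypes did (difference −0.30, SE 0.39, adjusted p = 0.708 from limma), and RRM1 exceeded RRM2 from 13.9 to 30.9 times, with no order by genotype.

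TYMS, which makes thymidylate (ENSG00000176890.11, GRCh37 chr18:657653-673578), had an FPKM of 18.1 and 21.1 in WT and 29.6 and 18.7 in C/EBPβ enh-/- libraries. The difference of 0.26 (SE 0.27, adjusted p = 0.637 from limma) was −0.06 without C/EBPβ enh-/- library 1. SLBP, which binds the stem-loop of histone mRNA, overlapped between genotypes, with FPKM from 35.8 to 46.8. TYMS shares exon sequence with ENOSF1 on the opposite strand (FPKM 22.8 to 31.9, above that of TYMS in all but C/EBPβ enh-/- library 1). On the opposite strand CCND1 also shares it with LTO1 and CDK4 with TSPAN31. The same holds for CCNE2 with INTS8 (FPKM 17.1 to 22.9, above that of CCNE2 in each library) and RFC4 with EIF4A2 (FPKM 141 to 198, above that of RFC4). FEN1 shares it with FADS2 on the same strand (FPKM 11.7 to 21.8). Whether fragments were counted by strand is not given in the sources used here.

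Genes with E2F letters in the promoter did not lie lower than those without. Among the 42 genes with a window, the median difference was −0.16 in the 22 that held an E2F match and −0.41 in the 20 that did not. The former ran from −0.58 (MCM2) to 0.55 (GMNN) and the latter from −1.10 (TK1) to 0.26 (ORC6). These are descriptions of letters in a fixed window, and no test was made. Only exact matches were counted, and the 9 genes with no window, among them CCND1, MCM5 and CCNE2, are in neither group.

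The place of a gene in the genome went with its difference. Over the 50 genes, the difference of a gene and the median difference of all tested genes on its chromosome correlated at Pearson's r = 0.57 and Spearman's rho = 0.58, as a description, since genes of a chromosome share that median and all genes share the 4 libraries. Chromosome 8, with 422 tested genes, had the highest median, 0.21, and its 3 members, CCNE2, GINS4 and MCM4, had a median of 0.44. Chromosomes 17 and 22 had medians of −0.47 and −0.41 and carried TK1 and MCM5. CCND1 and E2F8 lay on chromosome 11, whose median was −0.02, and so differed from their chromosome by −1.15 and 0.91. E2F8, which also enters the correlations, passed the filter on low values only through its C/EBPβ enh-/- libraries, so that its value is a description. Relative to their own chromosome, 31 of the 50 genes were lower and 19 higher, with a median of −0.11. The part of the chromosome in these differences was not tested.

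**Figure D3:**
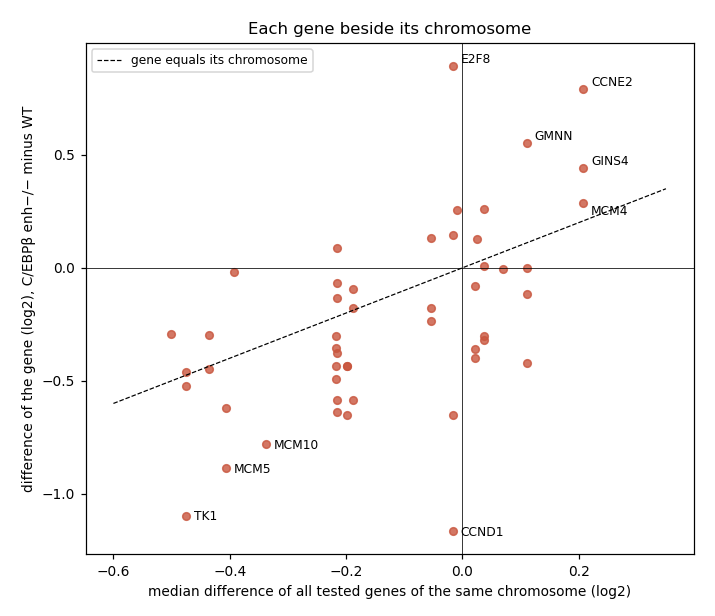
Difference of each of the 50 genes (y axis, log2, C/EBPβ enh-/- minus WT) against the median difference of all tested genes on its chromosome (x axis, log2), with a dashed line where both are equal. Points rise from lower left (TK1, MCM5, MCM10) to upper right (CCNE2, GINS4, MCM4), while CCND1 and E2F8 lie far below and above their chromosome's value of −0.02. E2F8 passed the filter on low values only through its C/EBPβ enh-/- libraries.

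The wider pathway gave similar counts. Of 38 other replication genes, none passed the adjusted threshold. At an unadjusted p under 0.05, 6 were lower (15.8%) and none higher, near the 16.9% and 3.86% of all tested genes. The median difference was −0.16, or 0.016 with libraries centred on their median. The lowest were UNG, which removes uracil from DNA, at 51.4 and 52.6 in WT and 12.9 and 32.0 in C/EBPβ enh-/- libraries (−1.31, adjusted p = 0.138 from limma), and the fork protein WDHD1, at 30.4 and 23.5 against 12.2 and 14.1 (−0.97, adjusted p = 0.0909 from limma). The highest were RRM2B, the alternative small subunit of ribonucleotide reductase (0.63), and the firing factor TICRR (0.46, or 0.18 without WT library 1). UNG and RRM2B both differed most in C/EBPβ enh-/- library 1, and without it stood at −0.68 and 0.18.

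Among 15 G1/S regulators, none passed the adjusted threshold, 6 were lower at an unadjusted p under 0.05 (40.0%, against 16.9% of all tested genes) and none higher (against 3.86%), and the median difference was −0.22, or −0.043 with libraries centred on their median. The repressor E2F6 was at 10.2 and 9.58 in WT and 4.43 and 5.03 in C/EBPβ enh-/- libraries (−0.93, adjusted p = 0.0871 from limma), and TFDP1, the partner of E2F proteins, and the ubiquitin ligase subunit SKP2 were each at −0.75 (SKP2 at −0.45 without WT library 2). CCNA2, the cyclin A of S and G2 phase, was highest at 0.58, followed by FBXW7, which targets cyclin E for degradation, at 0.29. Without C/EBPβ enh-/- library 1 these were 0.18 and −0.0065. The median of this list was 0.08 without C/EBPβ enh-/- library 2 and −0.49 without library 1.

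The 7 CDK inhibitors, which restrain the kinases above, had a median difference of 0.30, with none past the adjusted threshold, and with 2 higher (28.6%, against 3.86% of all tested genes) and none lower (against 16.9%) at an unadjusted p under 0.05. These were CDKN2D, at 1.94 and 1.62 in WT and 13.2 and 3.20 in C/EBPβ enh-/- libraries (1.47, adjusted p = 0.181 from limma), and CDKN2C, at 15.6 and 17.4 against 34.8 and 24.1 (0.78, adjusted p = 0.155 from limma). CDKN2D was at 0.60 without C/EBPβ enh-/- library 1. CDKN2A and CDKN2B were lowest, at −0.44 and −0.37, but CDKN2A was at −0.21 without WT library 2, and CDKN2B overlapped between genotypes and was at 0.16 without C/EBPβ enh-/- library 2. The median of the 7 was −0.13 without C/EBPβ enh-/- library 1, 0.64 without library 2 and 0.48 with libraries centred on their median.

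The mitotic and G2/M genes, the next phase of the cell cycle, were compared with the replication genes. Of 34, none passed the adjusted threshold and 1, KIF20A (24.4 and 48.1 in WT, 93.7 and 50.4 in C/EBPβ enh-/- libraries, and a difference of 0.98 that was 0.51 without WT library 1), was higher at an unadjusted p under 0.05 (2.94%, against 3.86% of all tested genes), with none lower (against 16.9%). Their median difference was 0.26, with 27 genes above 0 and 7 below, where the replication genes had 12 above and 38 below and 62.6% of all tested genes lay below 0. With libraries centred on their median it was 0.43. The mitotic median rested on C/EBPβ enh-/- library 1 and was −0.03 without it and 0.61 without library 2. Between single libraries, the mitotic median was 0.74 and 0.49 for C/EBPβ enh-/- library 1 minus WT libraries 1 and 2, and 0.12 and −0.11 for C/EBPβ enh-/- library 2. The replication and G1/S median was −0.16 and −0.35 for C/EBPβ enh-/- library 1, and −0.07 and −0.28 for library 2, below 0 in all 4 pairs, while WT library 2 exceeded WT library 1 by 0.23. The median of all tested genes was also below 0 in all 4 pairs, at −0.10 and −0.10 for C/EBPβ enh-/- library 1 and −0.19 and −0.20 for library 2, so that the members lay above all genes in the pair of C/EBPβ enh-/- library 2 and WT library 1. The step between the WT libraries was thus larger than 2 of these 4 differences between genotypes.

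**Figure D4:**
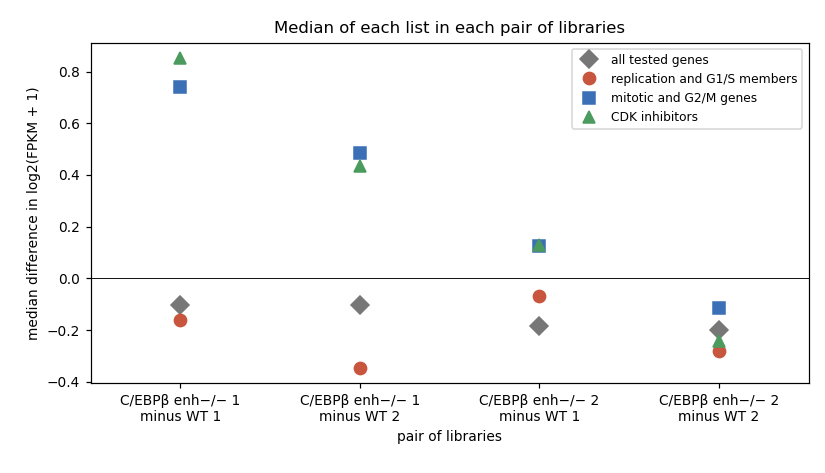
Median difference in log2(FPKM + 1) for each pair of 1 C/EBPβ enh-/- and 1 WT library (x axis), for all tested genes, the replication and G1/S genes, the mitotic and G2/M genes and the CDK inhibitors. The red circles and the grey diamonds of all genes both lie below 0 in all 4 pairs, the circles from −0.35 to −0.07 and above the diamond in the pair of C/EBPβ enh-/- library 2 and WT library 1, and the blue squares run from 0.74 down to −0.11.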

How the data were processed

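RNA-seq covered 4 libraries labelled HepG2, 2 of WT and 2 of C/EBPβ enh-/- cells, and genotype and replicate number were read from the sample titles. The submitters' processing notes name TopHat2 2.0.13, Cufflinks, edgeR and hg19. The deposited values are FPKM, with 1 value for each gene in each library. Whether libraries were scaled to each other is not given in the sources used here, so a gene's value can depend on the other genes of its library. Each library held 57815 entries, of which 57768 remained without chromosome Y pseudoautosomal copies, and 55535 matched a symbol in GENCODE release 44 on GRCh37.

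Values were transformed as log2(FPKM + 1), with a mean FPKM of at least 1 required. Genotypes were compared with limma 3.58.1 (lmFit, eBayes with a mean-variance trend, R 4.3.3), two-sided, with Benjamini-Hochberg adjustment over 12491 genes and a threshold of 0.05. An exact permutation of 2 against 2 libraries cannot give a p under 0.333. Depth relative to WT library 1 was read from the steps of low values (1.12 for WT library 2 and, for C/EBPβ enh-/- cells, 0.555 in the first library, 1.23 in the second) and is approximate, since 56.2% to 56.9% of these values lay within 0.1 of a whole fragment. All 4 libraries carry the same flow cell lane in the labels. The fit was tested on simulated data, where changes about as large as the largest of the members were not recovered. A difference that did not pass the test is therefore not shown to be absent. Same-numbered libraries did not deviate together (r = 0.0094), so the fit had no replicate block.

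The members were listed by function and not by a threshold on values, but they and the other lists were chosen with earlier results of these data known. Values in each library are given for the 6 largest rises and falls with a mean FPKM of at least 5 and for E2F1, CCND1, CCNE1, CDK2, CDK4, CDC6, MCM2, PCNA, RRM2 and TYMS, and for others where they show the range. From the other replication genes, the G1/S regulators and the CDK inhibitors, the 2 lowest, the 2 highest and any gene past the threshold were named. TFDP1 was named as well, since it lay beside SKP2. From the mitotic list only the gene at an unadjusted p under 0.05 was named. Alternatives were a replicate block, no trend, a filter at a mean of 5 or none, a pseudocount of 0.1, equal library totals, values centred on each library's median, protein-coding genes, no genes listed at 0, and leaving out each library. Promoters were RefSeq windows on GRCh38.p14. Python 3.11.15, pandas 2.3.3 and matplotlib 3.10.9 were used for tables and figures.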

Additional observations from a re-analysis of the deposited data

How the results depend on the processing

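With 2 libraries per genotype, the number of libraries limits the precision, and differences under about 0.573 on the log2 scale lay within the usual 95% interval. No gene of the 51 passed the adjusted threshold under 12 of the 13 alternatives; among protein-coding genes, 1 did (TK1). Of 50 tested genes, 31 kept their sign under all 13 alternatives and 19 changed it under at least 1, the cause of which was not tested. Genes higher at an unadjusted p under 0.05 numbered 1 with no filter (against 1.92% of all genes). They also numbered 1 at a mean FPKM of at least 5, where E2F8 is not tested (against 3.43% of all genes). With no filter, 0 of all genes were called lower or higher by limma, while 2657 were lower and 1107 higher at an unadjusted p under 0.05. Centring gave a median of −0.13, 3 genes lower and 4 higher by unadjusted p, 13 and 11 members below and above WT without overlap (26% and 22%, against 25.2% and 28.1% of all genes), and a median of 0.016 for the other replication genes. It turned E2F3 (0.17), CDC25A (0.080), MCM3 (0.057), RFC5 (0.11), POLE (0.042), POLE2 (0.16), LIG1 (0.093) and SLBP (0.17) above 0, and an equal total turned CDT1 to −0.00089. With the replicate number as a block, no member was called, 8 were lower and 2 higher at an unadjusted p under 0.05 (against 16.1% and 3.75% of all genes), and no call of the members or lists changed; over all genes, 93 were called lower and 31 higher, against 151 and 31. The calls over all genes were 61 and 23 with an equal total, 68 and 31 when centred, 324 and 47 without genes listed at 0, and 457 and 60 among protein-coding genes.

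Leaving out each library gave medians from −0.36 to −0.14 for the members, from −0.31 to −0.097 for the other replication genes and from −0.49 to 0.076 for the G1/S regulators. Lower genes at an unadjusted p under 0.05 numbered 3 to 7 and higher genes 0 to 2 (against 9.43% to 15.2% and 1.93% to 7.41% of all genes), and 22 to 34 and 6 to 11 members lay below and above WT without overlap (against 47.2% to 54.5% and 21.7% to 33.2% of all genes), a count that is easier to reach with 3 libraries. Differences that changed sign ran from −0.91 to 0.073 for CCND3, −0.88 to 0.079 for CCNE1, −0.25 to 0.062 for CDC25A, −0.060 to 0.076 for CDT1, −0.80 to 0.33 for E2F1, −0.022 to 0.019 for E2F3, −0.34 to 0.51 for E2F7, −0.19 to 0.48 for FEN1, −0.36 to 0.0028 for GINS1, −0.36 to 0.20 for LIG1, −0.32 to 0.086 for MCM3, −0.037 to 0.56 for ORC6, −0.0047 to 0.27 for PCNA, −0.47 to 0.21 for POLE, −0.11 to 0.078 for POLE2, −0.26 to 0.12 for RFC5, −0.78 to 0.18 for RRM2, −0.20 to 0.18 for SLBP and −0.060 to 0.58 for TYMS. The sign turned without C/EBPβ enh-/- library 1 for CCNE1, E2F1, E2F3, E2F7, FEN1, LIG1, MCM3, ORC6, POLE, POLE2 and TYMS, and without C/EBPβ enh-/- library 2 for CDT1, RFC5, RRM2 and SLBP. It turned without WT library 1 for CDT1, E2F3, E2F7, FEN1, PCNA and POLE2, and without WT library 2 for CCND3, CDC25A, GINS1, LIG1, POLE, RRM2 and SLBP. Among members that kept their sign, leaving out 1 library moved the difference by over 1.5 times for CDK4 (−0.14), CDC6 (−0.31), MCM10 (−0.50), RPA1 (−0.24), RPA2 (−0.16), RFC4 (−0.092) and POLA1 (0.068) without C/EBPβ enh-/- library 2, for CDK6 (−0.033), GINS2 (−0.16), GINS3 (−0.039), GINS4 (0.16), MCM4 (0.13) and POLD1 (−0.011) without C/EBPβ enh-/- library 1, for CCNE2 (0.47), GMNN (0.29) and PRIM1 (−0.29) without WT library 1, and for MCM2 (−0.38), MCM5 (−0.42), MCM7 (−0.24), ORC1 (−0.23) and RFC3 (−0.12) without WT library 2, the values nearest 0.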
